A study of Mus musculus with 4 samples.

Results

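Caveolae are small flask-shaped pits of the plasma membrane, and adipocytes carry them at high density. Their coat is built from caveolins, hairpin proteins that insert into the membrane, and from cavins, cytoplasmic proteins that wrap around them, while the ATPase Ehd2 sits at the neck and holds the pit at the surface. In humans, loss of caveolin 1 or cavin 1 causes congenital generalized lipodystrophy, in which body fat is nearly absent. Cav3 and Cavin4 are the muscle members of the 2 families. The 8 genes Cav1, Cav2, Cav3, Cavin1, Cavin2, Cavin3, Cavin4 and Ehd2 were taken by symbol from the array annotation. All 8 were found among 18194 genes measured, with 17 of 45101 probe sets. Each gene was represented by its probe set with the highest mean signal over all 4 arrays, and the other probe sets are given beside it.

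RNA came from the epididymal fat pad, the visceral depot beside the testis, of C57BL/6J mice started at 9 weeks of age on a diet with 60% of energy as fat and kept on it for 21 weeks. The arrays were 2 of mice on a high-calcium diet (1.8% calcium) with whey protein isolate, 1 of a mouse on the standard high-fat diet (0.4% calcium), and 1 whose labels leave the diet open. Each diet was fed to 10 mice, of which 2 were profiled. By these counts the array of open diet would be of a further mouse on the standard diet, but no label states this, so it was not assigned. The array of open diet entered no comparison, and its values are given beside the others. The high-fat feeding was shared by both diets, and calcium and protein source differed together, so their effects cannot be told apart. The series asks how calcium and dairy protein in the diet alter gene expression in fat, and the coat genes are read here for that comparison.

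Signals are log2 values of the deposited intensity. The median of each array served as its background level, and was -3.38 and -3.99 on high-calcium replicates 1 and 2, -4.002 on the standard array and -4.09 on the array of open diet. High-calcium replicate 1 was thus brighter among dim probe sets than the other arrays. All 10 measured adipocyte markers were above background on all 4 arrays, led by Fabp4, Adipoq and Retn. The lowest intensity on each array was its median divided by 100, so no marker could have an intensity of 0. Under background on all 4 arrays were 3 of 12 striated muscle markers, 1 of 12 smooth muscle markers and 2 of 12 duct and epididymis markers. Precision is limited by the number of arrays. An exact permutation test of 2 arrays against 1 cannot give a p below 0.333. In bulk tissue, fewer cells of a type and less RNA per cell cannot be told apart.

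The coat of the adipocyte caveola was detected brightly on every array, and none of its genes passed the test between the diets. Cav1, Cav2, Cavin1, Cavin2, Cavin3 and Ehd2 were above background on all 4 arrays and ranked in the brightest 10% of genes. Cav3 and Cavin4, the muscle members, were under background on all 4. No member passed limma's test between the diets, which called 0 of 18194 genes (0% called), with 898 genes (4.94%), and no member, at an unadjusted p under 0.05. With robust estimation and a trend in the variance, limma called 6 genes, and no member was among them. All 6 detected members lay less than 1.5-fold from the standard array on both high-calcium arrays, as did 48.3% of all genes, 76.5% of those detected on all 4 arrays and 91.9% of the brightest 10%, so the count is near that of equally bright genes. It depended on the scaling: after quantile normalization 5 of the 6 stayed within 1.5-fold, with Cavin1 at 0.60 on replicate 2, beside 92.3% of the brightest 10%. On median-centred arrays 3 of the 6 did, beside 35.1%, since Cav2 (-0.72), Cavin2 (-0.60) and Cavin3 (-1.003) were further below on replicate 1. The high-calcium arrays were at least 1.5-fold apart from each other for 0 of these 6 members, where 18.7% of detected genes were, and for 2 of all 8, where 42.5% of all genes were. Gaps between these arrays were smaller for bright genes. Their median size was 0.25 over detected genes, 0.13 over the brightest 10% and 0.06 over the 6 members. The share 1.5-fold apart among the brightest 10% was not counted.

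**Figure D1:**
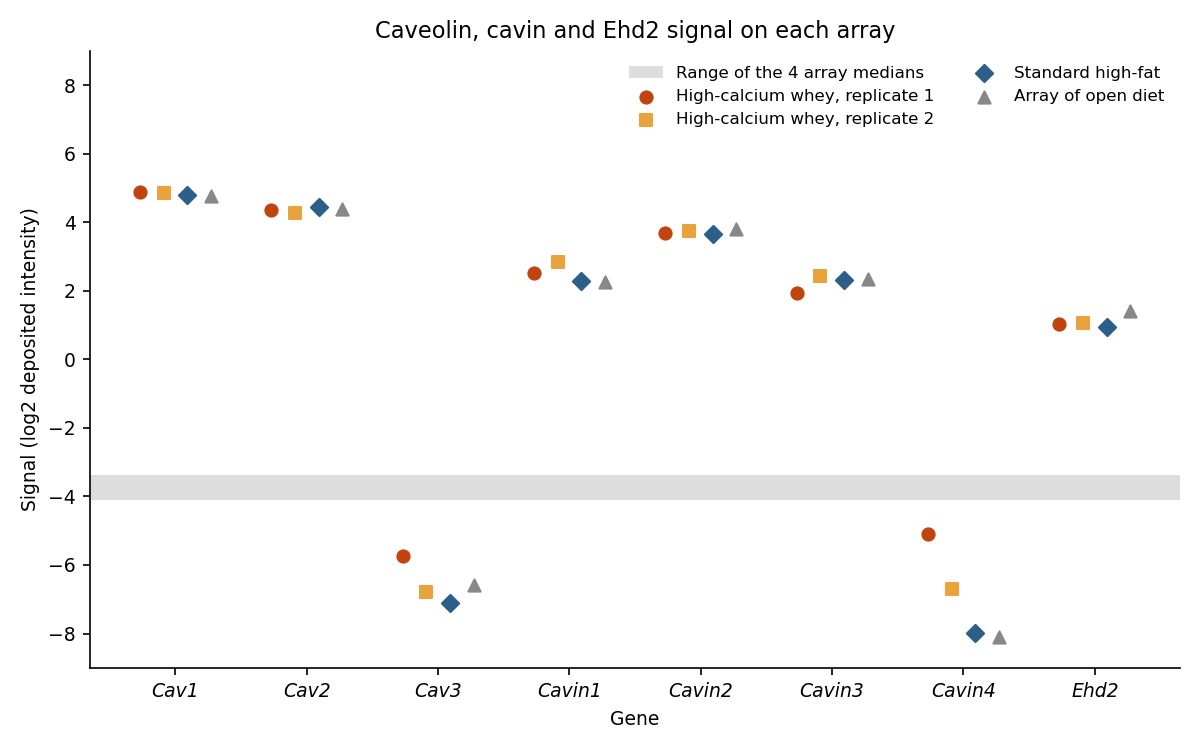
Signal of the 8 genes (log2 of the deposited intensity, vertical axis) on the high-calcium arrays (circles, squares), the standard array (diamonds) and the array of open diet (triangles); the grey band spans the 4 array medians taken as background. Cav1, Cav2, Cavin1, Cavin2, Cavin3 and Ehd2 lie above the band on all 4 arrays, whereas Cav3 and Cavin4 lie below it on all 4.

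The detected and the undetected members are shown by the stretch of 250 bases before the gene start of Cav1 and Cavin1, whose loss causes the human lipodystrophy, and of Cav3 and Cavin4, the muscle genes. Sequences are from RefSeq on GRCm38.p6, where 7 of the 8 members matched, and Cavin3 did not. Each runs 5′ to 3′ on the strand of its gene, and capitals mark the TATA element TATAAA, the box CCAAT and the GC box GGGCGG read on either strand.
Cav1, chr6:17306085-17306334, plus strand: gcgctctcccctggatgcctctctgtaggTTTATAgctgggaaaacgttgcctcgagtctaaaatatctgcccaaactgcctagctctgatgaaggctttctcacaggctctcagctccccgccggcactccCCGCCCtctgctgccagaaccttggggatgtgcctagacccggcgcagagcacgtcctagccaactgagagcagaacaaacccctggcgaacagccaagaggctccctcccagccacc
Cavin1, chr11:100970618-100970867, minus strand: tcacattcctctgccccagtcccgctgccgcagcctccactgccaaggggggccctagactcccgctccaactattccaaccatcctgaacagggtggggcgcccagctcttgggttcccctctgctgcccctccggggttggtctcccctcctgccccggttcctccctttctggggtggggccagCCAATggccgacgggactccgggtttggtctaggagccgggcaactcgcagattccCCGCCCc
Cav3, chr6:112459255-112459504, plus strand: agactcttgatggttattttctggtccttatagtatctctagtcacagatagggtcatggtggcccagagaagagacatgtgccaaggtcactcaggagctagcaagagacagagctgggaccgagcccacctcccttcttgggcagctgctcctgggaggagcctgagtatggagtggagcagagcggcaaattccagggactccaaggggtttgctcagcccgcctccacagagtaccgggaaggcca
Cavin4, chr4:48663264-48663513, plus strand: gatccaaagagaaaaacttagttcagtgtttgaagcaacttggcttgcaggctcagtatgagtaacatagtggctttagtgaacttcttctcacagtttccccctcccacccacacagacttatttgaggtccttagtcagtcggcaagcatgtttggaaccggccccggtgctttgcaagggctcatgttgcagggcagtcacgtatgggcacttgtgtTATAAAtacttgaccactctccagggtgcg

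The stretch before Cavin1 held CCAAT at 63 to 59 bases before the gene start and GGGCGG, on the opposite strand, at 7 to 2 bases. That before Cav1 held GGGCGG on the opposite strand at 118 to 113 bases and TATAAA on the opposite strand at 221 to 216 bases. The Cavin4 stretch held TATAAA at 30 to 25 bases before the start, and the Cav3 stretch held none of the 3 motifs. Over 32851 promoters of this length, the TATA element was present in 12.4%, the CCAAT box in 33.8% and the GC box in 32.7%. The share of G and C was 59.6% for Cav1, 67.6% for Cavin1, 56.0% for Cav3 and 48.8% for Cavin4, against a median of 52.4% over all of them. Among detected members whose stretch is not printed, it was 62.0% for Cav2, 58.0% for Ehd2 and 40.4% for Cavin2, which held no GC box. The E-box CANNTG, a sequence bound by muscle regulators among others, occurred 1 time before Cav1, 0 times before Cavin1, 2 times before Cav3 and 1 time before Cavin4, and was present in 66.2% of promoters. It occurred 2 times before Cav2, 1 time before Ehd2 and 0 times before Cavin2. Neither the share of G and C nor the E-box count divided the detected from the undetected members. A match describes the letters and does not show that a factor binds there.

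Cav1 encodes caveolin 1, the structural core of the caveola outside muscle, and had the smallest range of the members over the 4 arrays. Its signal was 4.88 and 4.85 on the high-calcium arrays, against 4.78 on the standard array, and 4.77 on the array of open diet. All 4 values lay within 0.11 of each other. The difference was 0.08 (SE 0.32), with a 95% interval from -1.10 to 1.26 and an adjusted p of 0.9999 from limma. That interval is far wider than the gap of 0.03 between the high-calcium arrays, because the fit borrows most of its spread from all genes. The sign of so small a difference turned after quantile normalization (-0.02) and on median-centred arrays (-0.24).

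Cav2 encodes caveolin 2, which assembles with caveolin 1 and depends on it to reach the cell surface. Its signal was 4.34 and 4.27 on the high-calcium arrays, against 4.44 on the standard array, and 4.38 on the array of open diet. Both high-calcium values were below the other values, by a mean of -0.13 from the standard array (SE 0.32, limma adjusted p = 0.9999). The second Cav2 probe set was dim, at -2.42 and -2.91 on the high-calcium arrays, against -3.19 on the standard array, and went the other way, with a mean difference of 0.53. The direction for Cav2 therefore rests on the brighter probe set, and the mean of both gave 0.20.

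Cavin1 encodes the cavin without which caveolae do not form, and showed the largest difference among detected members. Its signal was 2.52 and 2.85 on the high-calcium arrays, against 2.28 on the standard array, and 2.27 on the array of open diet. Both high-calcium values were above both other values. The folds over the standard array were 1.18 on replicate 1 and 1.48 on replicate 2, a mean log2 difference of 0.40 (SE 0.37, 95% interval from -0.96 to 1.77, limma adjusted p = 0.9999). The mean difference exceeded the gap between the high-calcium arrays, which was -0.33 for replicate 1 minus replicate 2. On median-centred arrays the mean was 0.09, with -0.39 on replicate 1 and 0.56 on replicate 2, so the agreement of the replicates held as deposited and after quantile normalization (0.30 and 0.60) but not under that scaling.

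The other Cavin1 probe sets lay near or below background. The second read -2.25 and -3.71 on the high-calcium arrays, against -4.44 on the standard array, where it was under background, and -3.86 on the array of open diet. It was at least 2.03-fold higher on the high-calcium arrays, as a mean of the brighter group over the background level of the standard array (limma adjusted p = 0.9999 over all probe sets). Replicate 1 carried this bound, at 3.37-fold over that level, and without it replicate 2 was 1.22-fold over it. The bound is for the deposited scale, on which the median of replicate 1 (-3.38) was itself above that of the standard array (-4.002). The third read -5.15 and -5.25 on the high-calcium arrays, both under background, against -3.70 on the standard array, and -3.70 on the array of open diet. The standard array was above its own background (-4.002) but below that of replicate 1 (-3.38), which enters the bound. No bound on a fold can therefore be given, and no direction is read from this probe set.

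Cavin2, also known as Sdpr, helps to curve the membrane and extend caveolae. Its signal was 3.69 and 3.74 on the high-calcium arrays, against 3.66 on the standard array, and 3.81 on the array of open diet. The difference was 0.06 (SE 0.32, limma adjusted p = 0.9999), less than the 0.14 by which the array of open diet stood above the standard array. Its other probe sets had mean differences of -0.01 and 0.13. All 3 were above background on all 4 arrays, and the high-calcium value furthest from the standard array was 0.15 above it. On median-centred arrays the sign turned (-0.26).

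Cavin3, also known as Prkcdbp, binds protein kinase C delta and is a further subunit of the cavin coat. Its signal was 1.92 and 2.44 on the high-calcium arrays, against 2.30 on the standard array, and 2.34 on the array of open diet. Replicate 1 was below every other array, and replicate 2 was above them, so the high-calcium arrays enclosed the standard array. The gap between these replicates, -0.51, exceeded their mean difference from the standard array, -0.12 (SE 0.43, limma adjusted p = 0.9999). Without replicate 1 the difference was 0.13.

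Ehd2 encodes the ATPase that forms rings at the neck of the caveola. Its signal was 1.02 and 1.07 on the high-calcium arrays, against 0.93 on the standard array, and 1.40 on the array of open diet. The high-calcium arrays lay just above the standard array, by 0.11 (SE 0.32, limma adjusted p = 0.9999), and below the array of open diet. Of the other 4 probe sets of Ehd2, 3 were above background on all 4 arrays, with mean differences of 0.11, 0.24 and 0.23, and 1 was below it on all 4. The detected probe sets were higher on both high-calcium arrays as deposited, whereas the probe set that represents the gene was at -0.21 on median-centred arrays.

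**Figure D2:**
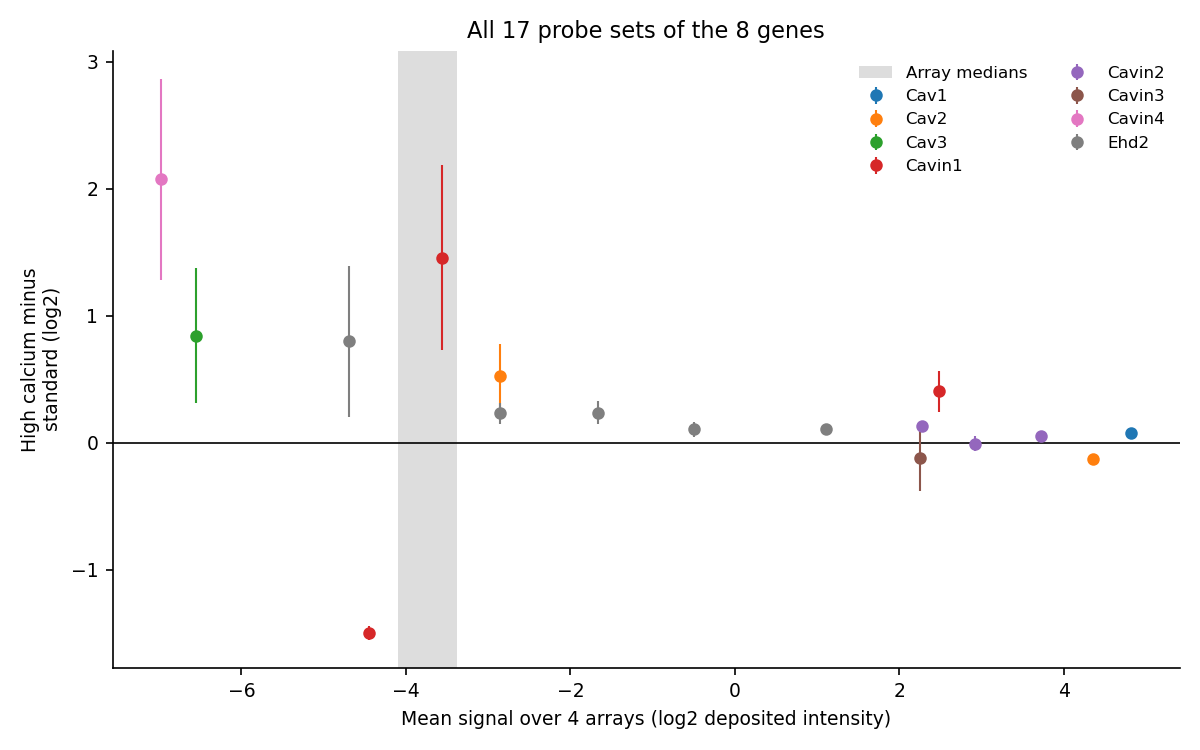
Mean difference between the high-calcium arrays and the standard array (log2, vertical axis) against mean signal over the 4 arrays (log2 of the deposited intensity) for all 17 probe sets; bars reach to the values of the 2 high-calcium replicates, and the grey band spans the array medians. Probe sets brighter than 2 lie between -0.13 and 0.40, and the differences beyond 1, of either sign, belong to probe sets within or below the band.

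Cav3 encodes the caveolin of muscle fibres. Its signal was -5.74 and -6.80 on the high-calcium arrays, against -7.11 on the standard array, and -6.58 on the array of open diet. Cavin4, also known as Murc, encodes the cavin of skeletal and heart muscle. Its signal was -5.11 and -6.69 on the high-calcium arrays, against -7.98 on the standard array, and -8.11 on the array of open diet. For both genes replicate 1 was highest, and every value was under background, so no fold is given. Neither passed limma's test (adjusted p = 0.9999 each).

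Striated muscle markers were high on replicate 1 as well, but not on replicate 2. Their median difference from the standard array was 1.70 on replicate 1 and -0.44 on replicate 2, and 1 of 12 was above background on all 4 arrays. Of the 12, 4 were higher on both high-calcium arrays, beside 38.6% of all genes, 1 was lower on both, beside 23.9%, and 7 went opposite ways. Their summed linear signal was 5.19 and 0.925 on the high-calcium arrays, against 0.987 on the standard array, and 0.863 on the array of open diet. Acta1, skeletal alpha-actin, had a signal of 0.32 and -0.92 on the high-calcium arrays, against -0.88 on the standard array. Mylpf, a fast skeletal myosin light chain, had -2.52 and -4.08 on the high-calcium arrays, against -3.72 on the standard array, so both of these genes were highest on replicate 1 and lower on replicate 2 than on the standard array. Ckm, muscle creatine kinase, had -1.25 and -3.58 on the high-calcium arrays, against -4.74 on the standard array. The part of muscle RNA in the Cav3 and Cavin4 values was not tested.

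**Figure D3:**
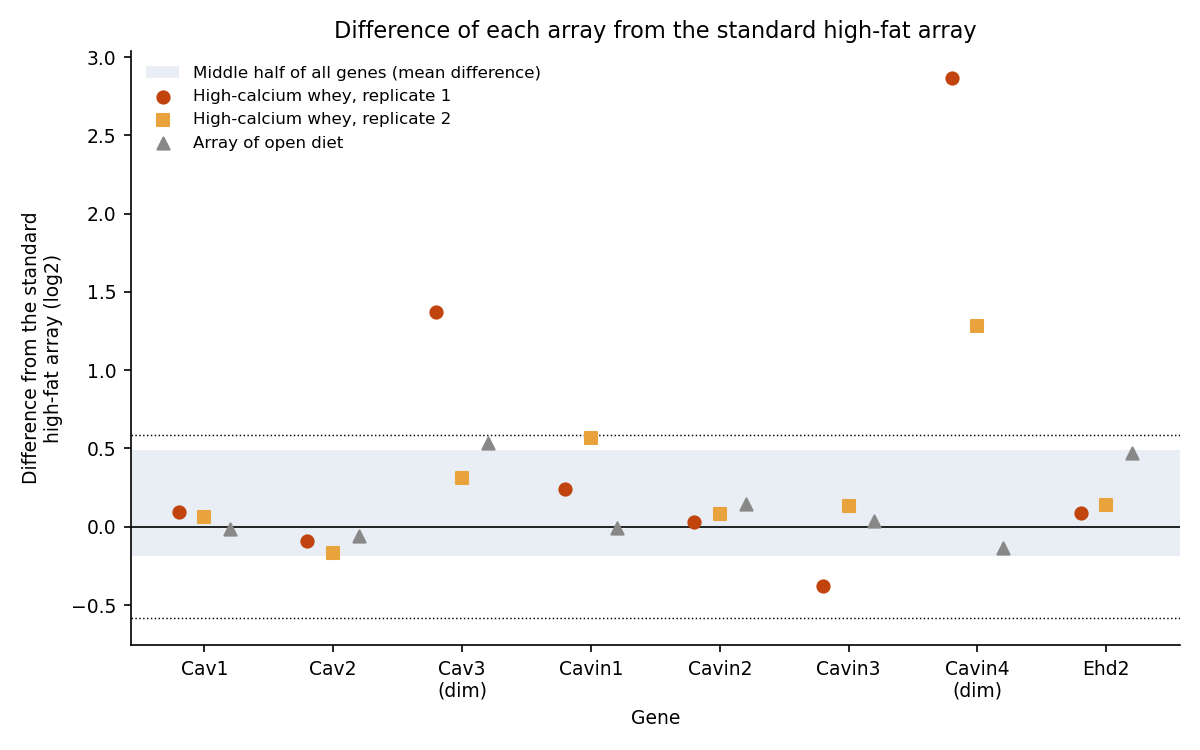
Difference from the standard array (log2, vertical axis) of high-calcium replicate 1 (circles), high-calcium replicate 2 (squares) and the array of open diet (triangles) for each gene; dotted lines mark 1.5-fold, the blue band holds the middle 50% of all genes, and dim marks genes under background on all 4 arrays. On the scale as deposited, which is plotted, the detected genes stay inside the dotted lines on both high-calcium arrays, with Cavin1 on replicate 2 closest to them at 0.57; on median-centred arrays Cav2, Cavin2 and Cavin3 pass the lower line on replicate 1.

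Taken by counts, 6 of the 8 members were higher on both high-calcium arrays, where 38.6% of all genes were, and 1 member, Cav2, was lower on both, where 23.9% were. The higher ones included Cav3 and Cavin4, both under background. Of the 6 detected members 4 were higher on both, where 3701 of 10463 detected genes were. On median-centred arrays these 4 were below the standard array on replicate 1: Cav1 (-0.53), Cavin1 (-0.39), Cavin2 (-0.60) and Ehd2 (-0.54). The median difference of the members was 0.10, beside 0.08 over all genes, and that of the 6 detected members was 0.07, beside 0.03 over detected genes. On median-centred arrays the median of all genes was -0.24 and that of the members -0.22. Centring shifts every gene of an array by the same amount, so it could not change the gap between the members and all genes. After quantile normalization the median of the members was 0.087, beside -0.007 over all genes. At 1.5-fold on both arrays 1 member was higher, the dim Cavin4, beside 12.7% of all genes (2304), and 0 were lower, beside 4.49% (817). Of the 6 detected members 0 were 1.5-fold higher and 0 lower on both, beside 2.11% and 1.12% of genes detected on all 4 arrays. After quantile normalization those gene counts were 1569 higher and 1270 lower.

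The range over the 4 arrays differed among the detected members. It was 0.11 for Cav1, 0.14 for Cavin2 and 0.17 for Cav2, beside a median of 0.45 over genes above background and of 0.26 over the brightest 10%. The median over the 6 detected members was 0.32, above that of genes of like brightness. Of the brightest genes, 10.0% had a smaller range than Cav1, 16.3% a smaller range than Cavin2 and 22.9% a smaller range than Cav2. Ehd2 (0.47), Cavin3 (0.51) and Cavin1 (0.58) ranged more widely than that median, and the share of brightest genes with a smaller range than theirs was 81.3%, 84.4% and 88.5%. Different arrays set these ranges, since the array of open diet was highest for Ehd2, replicate 1 lowest for Cavin3 and replicate 2 highest for Cavin1.

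Other proteins of the caveola were read from a list of 11 benders, ATPases, fission and anchoring proteins and raft flotillins, of which 10 were measured. Of these 4 were higher on both high-calcium arrays, where 38.6% of all genes were, and 2 were lower on both, where 23.9% were. None was 1.5-fold apart in 1 direction on both arrays, beside 12.7% of all genes higher and 4.49% lower. Ehd3, an endocytic relative of Ehd2, had -1.25 and -0.99 on the high-calcium arrays, against -1.83 on the standard array, and -1.26 on the array of open diet. Its difference of 0.70 (SE 0.35) was thus shared in part by the array of open diet. Dnm2, the dynamin that cuts caveolae from the membrane, had -1.29 and -1.14 on the high-calcium arrays, against -1.81 on the standard array, and -1.80 on the array of open diet. As deposited, both high-calcium values were above both others. On replicate 1 Dnm2 was 0.52 above the standard array, less than the 0.62 by which the median of replicate 1 was above that of the standard array. Over genes detected on all 4 arrays, as Dnm2 was, the median difference of replicate 1 was only 0.06.

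Pacsin3, a membrane-bending protein enriched in muscle, had -2.14 and -3.81 on the high-calcium arrays, against -2.34 on the standard array. Replicate 2 alone set its mean difference of -0.64. Ehd1, the recycling endosome relative of Ehd2, had 0.78 and 1.18 on the high-calcium arrays, against 1.36 on the standard array, and 1.36 on the array of open diet. The median difference of the list was 0.14 as deposited and turned to -0.07 after quantile normalization.

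Of 12 receptors, channels, kinases and enzymes reported in caveolae 11 were measured, with a median difference of 0.07. Higher on both high-calcium arrays were 5, beside 38.6% of all genes, and 3 were lower on both, beside 23.9%. Src, a kinase that phosphorylates caveolin 1, had -2.81 and -2.62 on the high-calcium arrays, against -3.35 on the standard array, and -3.41 on the array of open diet. As for Cavin1 and Dnm2, both high-calcium values were above both other values as deposited. On replicate 1 Src was 0.55 above the standard array, less than the 0.62 by which the median of replicate 1 was above that of the standard array. Src was detected on all 4 arrays, and over such genes the median difference of replicate 1 was only 0.06. Plvap, the protein of the diaphragm across endothelial caveolae, had -0.74 and -1.49 on the high-calcium arrays, against -0.49 on the standard array, and -1.55 on the array of open diet. The standard array was the highest of the 4 for Plvap.

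Slc2a4, the insulin-responsive glucose transporter, had a difference of 0.35 (SE 0.37), with 0.52 on replicate 1 and 0.18 on replicate 2. Aqp7, the glycerol channel of adipocytes, had a difference of -0.18 (SE 0.36), carried by replicate 1 at -0.33. The 1 member of this list at least 1.5-fold higher on both arrays, where 12.7% of all genes were, was Atp2b4, a plasma membrane calcium pump. It was at -4.85 and -4.64 on the high-calcium arrays, against -6.27 on the standard array. All its values were under background, so no fold is given.

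The other genes of congenital generalized lipodystrophy were bright on all 4 arrays. Agpat2, an acyltransferase of triglyceride synthesis, had 3.17 and 2.99 on the high-calcium arrays, against 3.22 on the standard array, and 3.21 on the array of open diet. Bscl2, which encodes the lipid droplet protein seipin, had 3.29 and 3.24 on the high-calcium arrays, against 3.38 on the standard array, and 3.36 on the array of open diet. Both were slightly lower on both high-calcium arrays, by -0.14 (SE 0.33) and -0.11 (SE 0.32), and neither passed limma's test (adjusted p = 0.9999 each).

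Endothelium and smooth muscle also carry many caveolae, and the median range of their markers over the 4 arrays was 0.71 and 3.57, beside 0.32 for the detected coat genes. These lists were not matched for brightness. The median range was 0.45 over detected genes and 0.26 over the brightest 10%, to which all 6 detected coat genes belong. Of 14 endothelial markers 12 were lower on both high-calcium arrays, where 23.9% of all genes were. Their medians were -0.33 and -0.51, and -0.58 on the array of open diet. Their summed linear signal was 7.35 and 6.23 on the high-calcium arrays, against 9.10 on the standard array, and 5.98 on the array of open diet. Emcn, an endothelial sialomucin, was at -0.50 and -0.66 on the high-calcium arrays, against 0.17 on the standard array. Esam, an adhesion molecule, was at 0.43 and 0.24 on the high-calcium arrays, against 0.71 on the standard array, so both genes were highest on the standard array. Cldn5, a tight junction protein, was at 0.67 and -0.32 on the high-calcium arrays, against 0.43 on the standard array between them. The medians of the 6 detected coat genes on the same arrays were 0.06 and 0.11, and 0.01 on the array of open diet.

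The median difference of smooth muscle markers was 2.63 for replicate 1, -0.80 for replicate 2 and -0.73 for the array of open diet. Their summed linear signal was 92.8 and 15.7 on the high-calcium arrays, against 16.97 on the standard array, and 13.5 on the array of open diet. Acta2, smooth muscle actin, was at 4.42 and 2.79 on the high-calcium arrays, against 2.71 on the standard array, so that replicate 1 stood apart. The same held for Mylk, myosin light chain kinase, at 3.38 and 1.35 on the high-calcium arrays, against 1.496 on the standard array. Synpo2, a muscle actin-binding protein, was at 1.60 and 1.75 on the high-calcium arrays, against 0.96 on the standard array, with both replicates higher. The summed linear signal of the 6 detected coat genes was 74.2 and 76.2 on the high-calcium arrays, against 73.5 on the standard array, and 74.5 on the array of open diet. The part of each cell type in the coat signal was not tested.

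Adipocyte markers were the list whose medians lay nearest to those of the coat, at 0.04 on replicate 1, 0.13 on replicate 2 and 0.02 on the array of open diet. Their summed linear signal was 164 and 154 on the high-calcium arrays, against 148 on the standard array, and 141 on the array of open diet. Fabp4, the fatty acid carrier, was at 5.55 and 5.38 on the high-calcium arrays, against 5.29 on the standard array. Adipoq, the hormone adiponectin, was at 5.15 and 5.02 on the high-calcium arrays, against 5.12 on the standard array, and Retn, resistin, was at 4.60 and 4.06 on the high-calcium arrays, against 4.20 on the standard array, so that the high-calcium replicates enclosed the standard array for both.

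Medians of macrophage markers were -0.89 (replicate 1) and 0.08 (replicate 2), and their summed linear signal was 60.7 and 93.0 on the high-calcium arrays, against 87.6 on the standard array, and 92.6 on the array of open diet. Lgals3, galectin 3, was at 4.34 and 4.76 on the high-calcium arrays, against 4.58 on the standard array. Lyz2, lysozyme, was at 4.09 and 4.56 on the high-calcium arrays, against 4.41 on the standard array, so replicate 1 was the low array for both. Csf1r, the receptor for macrophage colony-stimulating factor, was at 2.92 and 3.56 on the high-calcium arrays, against 3.73 on the standard array. Cavin3 was the detected member with its lowest value on replicate 1 as well, and the part of macrophages in that was not tested. Mesothelial markers had medians of 1.23 and 0.50 for replicates 1 and 2. Upk3b, a uroplakin of the mesothelium, was at 0.11 and -0.34 on the high-calcium arrays, against -1.20 on the standard array. The keratins Krt19 and Krt8 split the replicates instead, with Krt19 at 1.35 and -1.89 on the high-calcium arrays, against -0.63 on the standard array, and Krt8 at 0.80 and -2.20 on the high-calcium arrays, against 0.03 on the standard array.

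**Figure D4:**
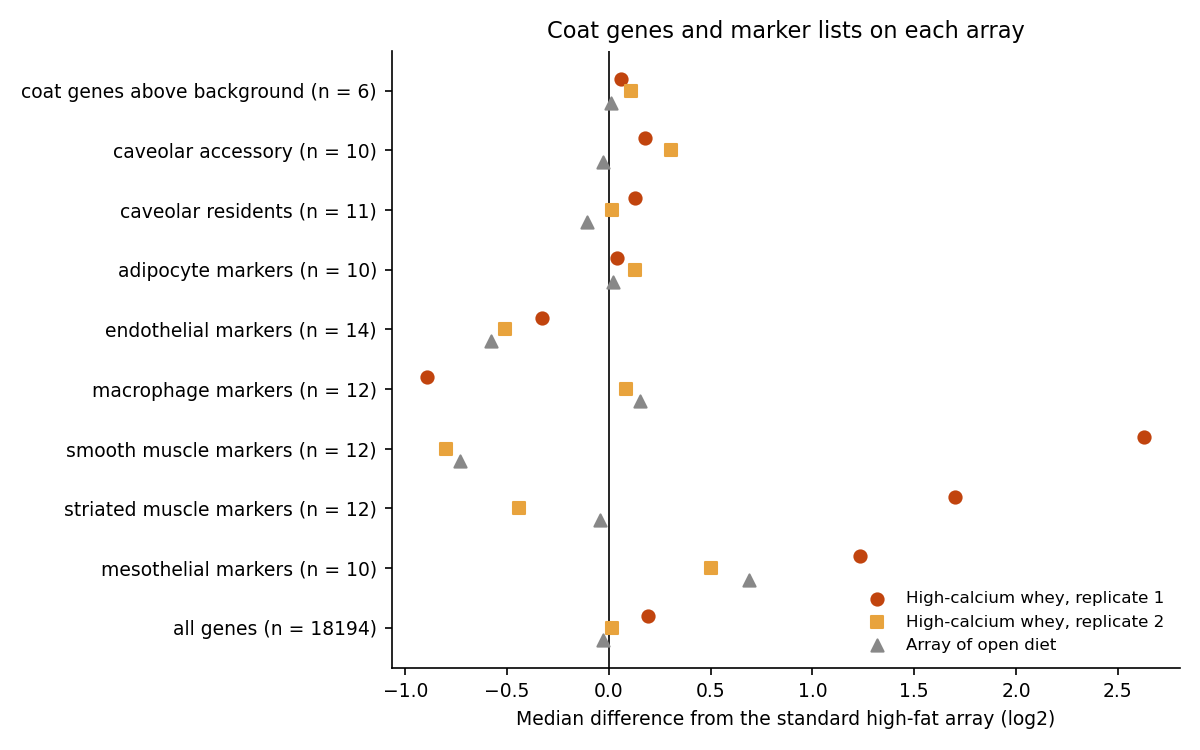
Median difference from the standard array (log2, horizontal axis) of the 6 detected coat genes, the lists of other caveolar proteins, the cell type markers and all genes on high-calcium replicate 1 (circles), high-calcium replicate 2 (squares) and the array of open diet (triangles). The coat and adipocyte medians stay between 0.01 and 0.13 on all 3 arrays, whereas smooth muscle reaches 2.63 on replicate 1 and endothelial markers are below 0 on all 3.

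The genes most like Cav1 were sought among 10462 others above background on all 4 arrays, by Euclidean distance over the 4 arrays after each gene was centred on its own mean. They were Lysmd3 (distance 0.0023), Zdhhc2 (0.0071), Rpl7 (0.022), Dnaja1 (0.025) and Phf5a (0.025), where the median distance was 0.35. The genes most like Cavin1 were Tbcd (0.036), Gria2 (0.052), Mpv17l2 (0.061), Zfp429 (0.066) and Rbm14 (0.069), where the median distance was 0.58. With 4 arrays such likeness is a description of these profiles. No caveolar protein or adipocyte marker was among the nearest 5 of either gene.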

How the data were processed

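Each of the 4 arrays holds 1 linear intensity per probe set (45101 in all), as deposited by the authors. RMA is named, with no version, in the submitters' processing notes, but the deposited intensity is not on the log2 scale of RMA output, and the scaling of each array is not stated in the labels. Intensities were log2 transformed with no added constant. Of the probe sets 34958 had 1 symbol in the platform annotation, 932 had several and 9211 had none. The diets were compared over the 3 arrays with a labelled diet, with limma 3.58.1 in R 4.3.3 (lmFit and eBayes, two-sided, Benjamini-Hochberg over 18194 genes, threshold 0.05), which left 1 residual degree of freedom and 2.38 after moderation. The lone standard array is taken to vary like the high-calcium arrays. The p-values rest on the spread between the 2 high-calcium arrays and on a spread pooled over all genes. They hold no measure of the spread between mice on the standard diet. The fit was tested on simulated data. Genes were named by rule: all members, list members by size of difference among those above background or 1.5-fold apart on both arrays, the brightest 3 markers of each cell type, and the nearest 5 genes. Of the listed genes Pacsin2, Lyn, Plin1, Cfd and Crisp1 were not analysed here. The markers of duct and epididymis, some picked earlier on these arrays, were at a median of -2.18 (replicate 1) and -3.28 (replicate 2) from the standard array, and the brightest 3 were Lcn2, Calml4 and Adgrg2. Of the 12 measured, 7 were lower on both high-calcium arrays, beside 23.9% of all genes, and 1 was higher on both, beside 38.6%. The other 4 went opposite ways, with Defb42 6.47 above the standard array on replicate 1. Their summed linear signal was 12.7 (replicate 1) and 1.22 (replicate 2), against 12.2 on the standard array. Members and lists were chosen with earlier results of these data known. Alternatives covered scaling, probe sets, dim genes, the variance model and the loss of either high-calcium array. Plots were drawn with matplotlib 3.10.9.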

Additional observations from a re-analysis of the deposited data

How the results depend on the processing

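Of 70 values of the 8 members under the alternatives, 61 kept their direction and their side of the threshold, 9 turned and 0 passed the threshold. Some of the 61 could not turn, since the variance model and the filter on dim genes leave the difference of a member unchanged. The same holds for probe set alternatives that keep the probe set of a gene. The count of 61 is therefore no measure of stability. Centring each array on its median turned Cav1 (-0.24), Cavin2 (-0.26), Ehd2 (-0.21), and the medians of the members (-0.22), of the caveolar accessory list (-0.18) and of the caveolar residents list (-0.25). Quantile normalization turned Cav1 (-0.016) and the accessory list (-0.066). With single probe sets Cav2 was 0.53, Cavin1 -1.499, where both high-calcium arrays were under background, and Cavin2 -0.0066. The mean of all probe sets gave 0.20 for Cav2, 0.16 for the members and 0.23 for the accessory list. Leaving out a high-calcium array gave 0.091 to 0.14 for the members, 0.18 to 0.30 for the accessory list, 0.02 to 0.13 for the residents and -0.38 to 0.13 for Cavin3, the 0.13 without replicate 1. Cav1 has only a probe set whose suffix can mark shared transcripts, so it has no value without those, Cavin1 then rests on a dim probe set (1.46), and Cav3 and Cavin4 have none among genes above the array median.

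The 6 detected members within 1.5-fold of the standard array became 3 on median-centred arrays and stayed 6 with either high-calcium array left out, a count whose alternatives were chosen after seeing the data. Centring called 96 genes and the trend with robust estimation 6, against 0 as deposited. Genes 1.5-fold higher on both arrays numbered 234 above the median on the 3 labelled arrays and 221 on all 4, a filter chosen after seeing the data, and 2932 to 5878 with an array left out. Lower genes numbered 1270 after quantile normalization, 1382 after centring, 117 under either filter and 1984 to 2889 with an array left out. Fewer genes or arrays enter the filtered and left-out counts; the cause of the other changes was not tested. No paired analysis was possible because the standard array carries no replicate number in its labels.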

Other observations

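On the array of open diet, which entered no test between the diets, Ehd2 was 0.47 above the standard array with the probe set that represents it. Its other 3 probe sets above background were at -0.02, 0.03 and 0.06. The 3 Cavin2 probe sets were 0.14, 0.20 and 0.38 above the standard array. Cav1, Cavin1 and Cavin3 lay within 0.04 of the standard array on this array, and Cav2 was at -0.06.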
